A study of Mus musculus with 12 samples.

Results

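The insulin-like growth factor 1 (Igf1) axis was followed through 9 genes: the ligand Igf1, its receptor Igf1r, the docking protein Irs1 and the binding proteins Igfbp2, Igfbp3, Igfbp4, Igfbp5, Igfbp6 and Igfbp7. The 9 were chosen by name, with earlier results of these data known, and all 9 were among the 22180 genes measured. A probe set, the group of probes that reads a gene, stood for each of them, and for Irs1, which had 2, the brighter was used. Expression was measured in whole mouse lungs of E14.5 embryos, in 3 genotypes of 4 arrays each. Controls were Shh+/Cre, Yy1 mutants were Yy1flox/flox;Shh+/Cre and Dicer mutants were Dicerflox/flox;Shh+/Cre. All 3 genotypes, the controls included, thus carried a Cre allele at a Shh locus. Shh is active in the lung epithelium, so the allele directs recombination there, while the RNA came from epithelium, mesenchyme, muscle, vessels and blood cells together. Fewer cells of a type and less RNA per cell cannot be told apart in such specimens. The labels do not say whether specimens of a genotype came from separate litters, so the p-values measure only the spread between these specimens.

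Igf1 is a secreted growth factor that binds the receptor tyrosine kinase Igf1r. The active receptor phosphorylates Irs1, which recruits phosphoinositide 3-kinase and so reaches Akt and mTOR, while a parallel branch runs through the MAP kinases. The Igf binding proteins hold the ligand in the extracellular space, and proteases such as Pappa and Pappa2 release it by cutting them. In the developing lung Igf1 is made mainly by mesenchymal cells, and mice that lack it or its receptor have small, immature lungs.

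Values are log2 expression levels, on which a step of 1 is a doubling. The threshold for a call was an adjusted p of 0.05 in limma, with p-values adjusted over all 22180 genes. In the Yy1 mutants 2 of the 9 genes fell, Igf1 and Igfbp2. In the Dicer mutants 3 fell, Igf1, Irs1 and Igfbp5. None of the 9 was called higher in either mutant. In both directions together 6.61% of all genes were called in Yy1 mutants and 8.75% in Dicer mutants. Of all genes, 3.84% were called lower in Yy1 mutants and 2.77% higher, and 3.97% lower in Dicer mutants and 4.78% higher. The median difference of the 9 genes was -0.11 in Yy1 mutants and 0.10 in Dicer mutants, beside 0.00161 and -0.03 over all genes. Both comparisons use the same 4 controls, so their results are not independent.

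**Figure D1:**
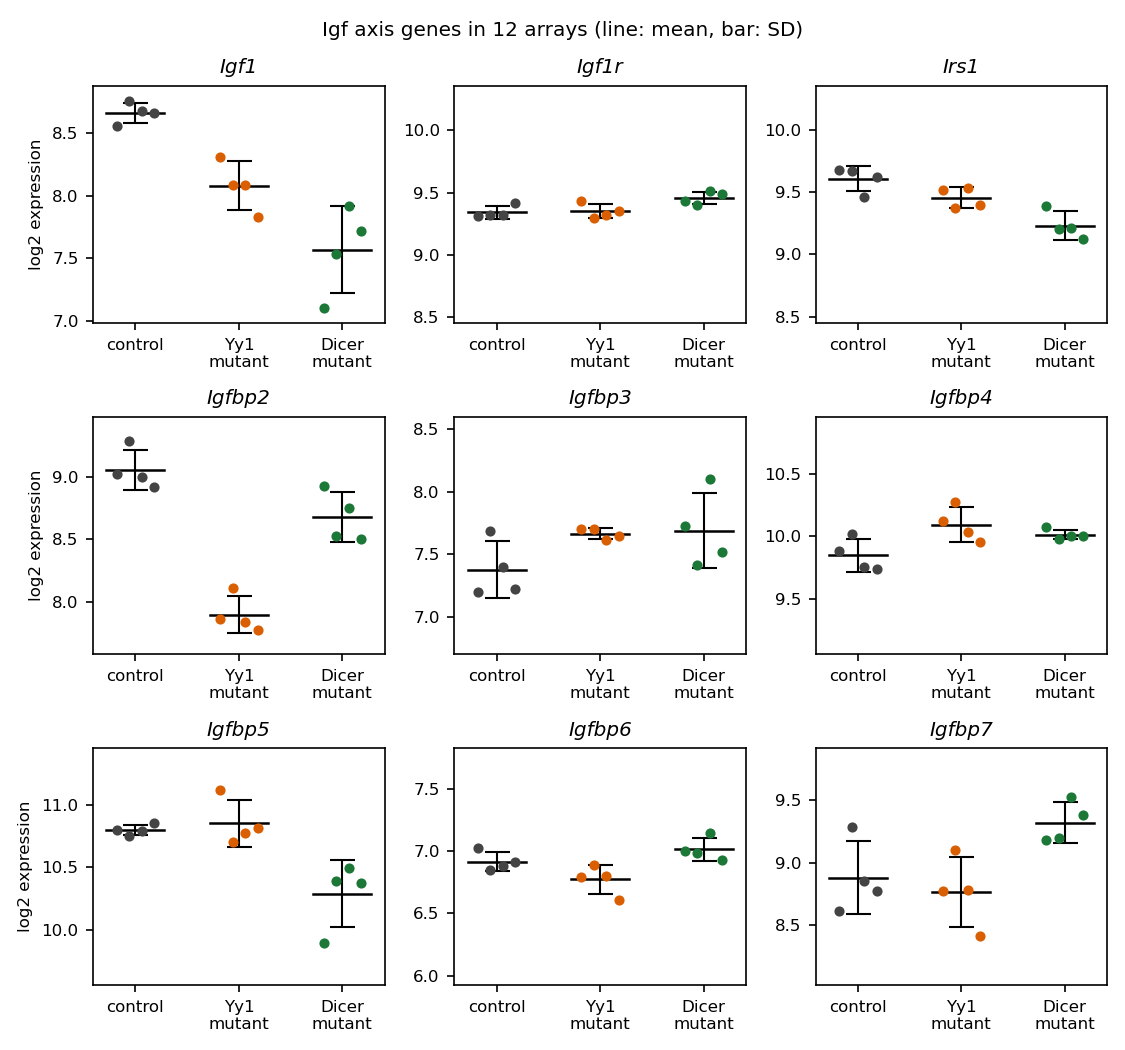
Log2 expression of the 9 Igf axis genes (vertical axes, each spanning the same range of log2 units) in the 4 arrays of each genotype (points, in replicate order from left to right), with the mean (line) and SD (bar). Igf1 lies below the controls in all 8 mutant arrays, Igfbp2 is lowest in the 4 Yy1 mutant arrays, and Igfbp5 is lowered in the 4 Dicer mutant arrays alone.

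The libraries were checked before the members were compared. Dicer1 fell in Dicer mutants by 0.61 on the log2 scale (adjusted p = 0.00127, limma). Yy1 differed by -0.19 in Yy1 mutants (adjusted p = 0.125), although its 4 mutant arrays lay below the 4 controls. Whether either probe set reads the deleted exons is unknown, so these values check the labels only in part. On 3 arrays, Yy1 mutant 2, Yy1 mutant 3 and Dicer mutant 4, Y-linked genes stood apart, with Eif2s3y at 5.92 to 7.99 against 3.73 to 4.48 on the other 9 arrays. They are called the Y-positive arrays below, and results that rest on them are also given without them. None of the Y-positive arrays was a control, so raised Y-linked genes were not balanced over the genotypes.

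The lung epithelial list, which held Nkx2-1 and Sftpc, lay above the median gene on every array, and the genotypes differed in cell markers. The mean level of 12 epithelial markers ran from 9.03 to 9.29 in controls, 8.19 to 8.54 in Yy1 mutants and 8.54 to 8.77 in Dicer mutants, with 10 and 9 of 12 called lower. Smooth muscle markers ran from 8.82 to 9.06 in controls, 7.46 to 7.93 in Yy1 mutants and 7.49 to 8.07 in Dicer mutants, with 7 and 8 of 9 called lower. Mesenchymal markers ran from 10.02 to 10.08 in controls, 10.37 to 10.53 in Yy1 mutants and 10.29 to 10.50 in Dicer mutants, with 5 and 6 of 10 called higher. Macrophage and leukocyte markers ran from 7.05 to 7.19, 7.46 to 7.71 and 7.66 to 7.86 in the same order, with 10 and 11 of 12 called higher. Of 9 endothelial markers, 1 was called higher in Yy1 mutants and 8 in Dicer mutants, where their mean level of 9.62 to 9.70 lay above the 9.15 to 9.40 of controls. Cartilage markers ran from 6.90 to 7.02 in controls, 6.48 to 6.71 in Yy1 mutants and 6.55 to 6.98 in Dicer mutants, with 3 and 1 of 6 called lower. Liver markers ran from 5.34 to 5.65 in controls, 5.48 to 5.63 in Yy1 mutants and 5.80 to 6.67 in Dicer mutants, with 0 and 1 of 6 called higher. Heart markers, 0 of 5 of which were called in either mutant, ranged from 6.47 in Dicer mutant 1 to 8.72 in Dicer mutant 3. The part of these markers in the results below was not tested.

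**Figure D2:**
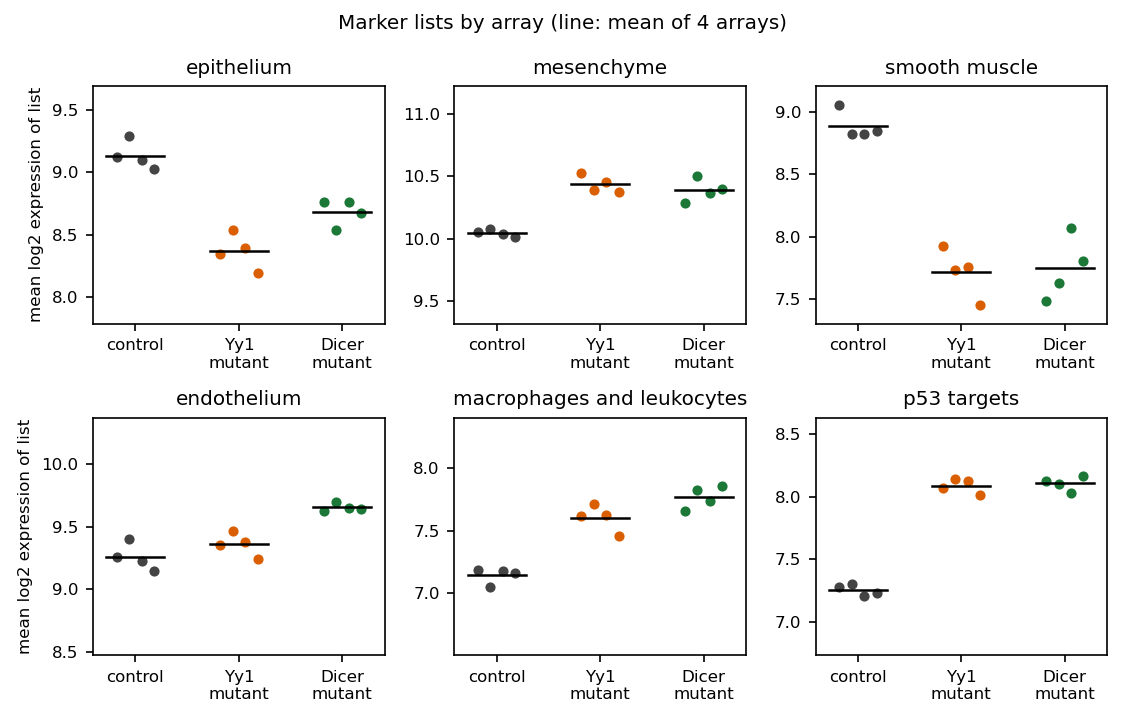
Mean log2 expression of 6 marker lists (vertical axes, equal spans) in each array (points) of the 3 genotypes, with the mean of 4 arrays (line). Epithelial and smooth muscle markers lie lower in all 8 mutant arrays, mesenchymal, macrophage and p53 target genes lie higher, and endothelial markers lie above the controls in the 4 Dicer mutant arrays.

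Igf1 was the only member called lower in both mutants, and Igfbp2 narrowly missed the test in Dicer mutants (adjusted p = 0.0512, limma). The Igf1 level was 8.56, 8.76, 8.68 and 8.66 in controls 1 to 4, a narrow range. It was 8.31, 8.09, 8.09 and 7.83 in Yy1 mutants 1 to 4, and 7.10, 7.53, 7.92 and 7.72 in Dicer mutants 1 to 4. Every mutant array thus read below every control, the Dicer mutants were the most spread out, and the 2 mutants overlapped each other between 7.83 and 7.92.

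In Dicer mutants Igf1 fell 2.14-fold, by 1.10 on the log2 scale (SE 0.147), from 8.66 ± 0.0821 to 7.57 ± 0.353 (SD, n = 4; adjusted p = 0.000414, limma). The call held in all 21 alternatives, with an adjusted p of 0.00011 to 0.00538. In Yy1 mutants it fell 1.5-fold, by 0.58 (SE 0.147), to 8.08 ± 0.197 (adjusted p = 0.0292). This call was less secure. It was lost without control 1, control 2, control 3 or control 4 (adjusted p = 0.0501, 0.0698, 0.0662 and 0.0589), without Yy1 mutant 2, Yy1 mutant 3 or Yy1 mutant 4 (0.0588, 0.0669 and 0.0907), with the replicate number as a block (0.0525) and without the 3 Y-positive arrays (0.175), while the difference stayed between -0.66 and -0.50. The direct comparison of the mutants, Yy1 minus Dicer, gave 0.51 (95% interval 0.19 to 0.83, adjusted p = 0.0668), which did not pass the test. It passed in 4 of 21 alternatives, of which the lowest adjusted p was 0.0256, without Dicer mutant 3.

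Within each mutant genotype the arrays with the highest and the lowest Igf1 level were also those of the smooth muscle list, which was singled out of 13 lists after its values were seen. Dicer mutant 1 had the lowest Igf1 level and the lowest smooth muscle mean, 7.49, and Dicer mutant 3 the highest of both, at 8.07 for the list. Yy1 mutant 1, at 7.93, and Yy1 mutant 4, at 7.46, were likewise the highest and the lowest of their group in both. The controls did not share this order, since control 1 had the lowest Igf1 level and the highest smooth muscle mean, 9.06. The cartilage list had the same highest and lowest Yy1 mutant (6.71 and 6.48) and the same highest Dicer mutant (6.98), with Dicer mutant 1 at 6.57 near the lowest, 6.55. The mesenchymal list shared the highest and lowest Yy1 mutant (10.53 and 10.37) and the lowest Dicer mutant (10.29). It was highest in Dicer mutant 2. The neural list shared the highest and lowest Yy1 mutant (6.35 and 5.92) and the highest Dicer mutant (6.18). It was lowest in Dicer mutant 2. The heart list was also lowest in Yy1 mutant 4 and Dicer mutant 1 and highest in Dicer mutant 3. Endothelial (9.24 and 9.62) and macrophage (7.46 and 7.66) lists were lowest in Yy1 mutant 4 and Dicer mutant 1 too, but did not share the highest arrays. Epithelial and p53 target lists shared only the lowest Yy1 mutant. The mesothelial, erythroid, liver and skeletal muscle lists shared neither lowest array. What these lists contribute to the Igf1 signal was not tested.

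Igf1r, which transmits the signal of Igf1 and Igf2, was not called in any comparison. It read 9.31, 9.32, 9.32 and 9.42 in controls, 9.43, 9.30, 9.32 and 9.35 in Yy1 mutants, and 9.43, 9.40, 9.51 and 9.49 in Dicer mutants. The 3 groups overlapped. The difference from control was 0.00674 in Yy1 mutants (95% interval -0.12 to 0.14, adjusted p = 0.974, limma) and 0.11 in Dicer mutants (-0.01 to 0.24, adjusted p = 0.282). In both mutants the interval leaves out any change of the size seen for Igf1. The sign of the Yy1 difference changed with the scaling, to -0.00365 with equal array medians, and it carries no direction.

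Irs1, which couples the active receptor to phosphoinositide 3-kinase, fell in Dicer mutants. It read 9.68, 9.67, 9.46 and 9.62 in controls, 9.52, 9.37, 9.53 and 9.40 in Yy1 mutants, and 9.39, 9.20, 9.21 and 9.12 in Dicer mutants. The Dicer arrays all lay below the controls, the highest of them close to the lowest control, and the Yy1 arrays overlapped both groups. The fall in Dicer mutants was 1.3-fold, or 0.38 on the log2 scale (SE 0.0772, adjusted p = 0.00756, limma). Without the 3 Y-positive arrays the difference was -0.34 (adjusted p = 0.0538). The second, dimmer Irs1 probe set differed the same way, from 5.84 to 5.61, a difference of -0.23. In Yy1 mutants Irs1 differed by -0.15 (95% interval -0.32 to 0.01, adjusted p = 0.309). The mutants were not shown to differ from each other in Irs1, with 0.22 for Yy1 minus Dicer (0.06 to 0.39, adjusted p = 0.13, and 0.0297 with array weights).

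**Figure D3:**
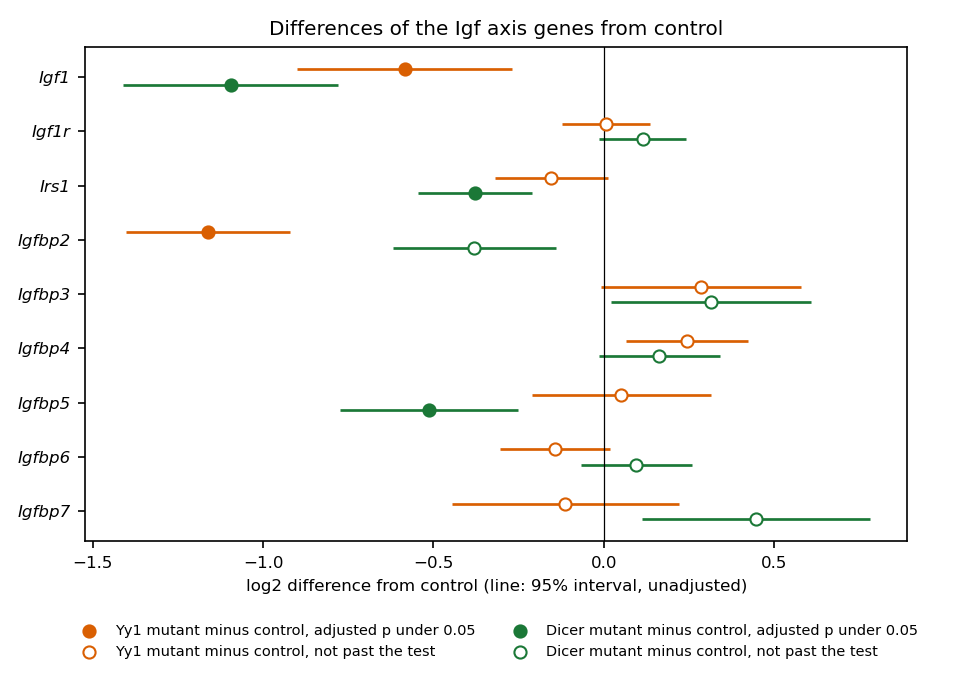
Log2 difference of each of the 9 genes from control (horizontal axis) in Yy1 mutants and in Dicer mutants, with the unadjusted 95% interval (line). Filled points passed the test: Igf1 and Igfbp2 in Yy1 mutants and Igf1, Irs1 and Igfbp5 in Dicer mutants, all of them below 0.

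Igfbp2 and Igfbp5 lie next to each other in the mouse genome and are read towards each other from opposite strands. They were the 2 members called between the mutants, so the stretches of 250 bases before their starts are shown, from RefSeq (GRCm38.p6). Igfbp2 is at chr1:72824230-72824479, on the plus strand, and Igfbp5 at chr1:72874866-72875115, on the minus strand. Capitals mark GGGCGG, the GC box, on either strand.
Igfbp2: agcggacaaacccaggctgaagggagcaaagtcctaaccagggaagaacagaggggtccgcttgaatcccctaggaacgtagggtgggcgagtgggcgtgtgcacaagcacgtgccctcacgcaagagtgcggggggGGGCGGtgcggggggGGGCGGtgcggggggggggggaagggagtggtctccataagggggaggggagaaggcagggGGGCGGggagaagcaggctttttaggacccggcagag
Igfbp5: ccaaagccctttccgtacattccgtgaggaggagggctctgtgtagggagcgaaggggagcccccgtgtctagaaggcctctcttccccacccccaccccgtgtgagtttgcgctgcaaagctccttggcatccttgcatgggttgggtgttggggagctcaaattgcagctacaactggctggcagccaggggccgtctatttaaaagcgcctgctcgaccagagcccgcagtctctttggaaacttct
RefSeq lists 2 starts for Igfbp2, and the outermost is shown. Its stretch held 3 GC boxes and 67.2% G and C, while the stretch before the other Igfbp2 start, at chr1:72825137-72825386, held 0 and 56.4%, close to the Igfbp5 stretch with 0 and 58.8%. Of 32851 such stretches, 32.7% held a GC box and the median G and C content was 52.4%. The 3 GC boxes do not overlap. A further 3 motifs were searched on both strands and were in none of these stretches. CCATNTT, a consensus of Yy1, is in 12.4% of all stretches, CCAAT in 33.8% and TATAAA in 12.4%. CCATNTT was in 0 of the 10 stretches listed for the 9 genes. A match or its absence in these letters says nothing of binding.

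Igfbp2, a binding protein of fetal tissues that holds both Igf1 and Igf2, had the largest difference of the 9 in Yy1 mutants. It read 9.02, 9.29, 9.0 and 8.92 in controls, 7.86, 8.11, 7.84 and 7.77 in Yy1 mutants, and 8.93, 8.53, 8.75 and 8.5 in Dicer mutants. The Yy1 arrays formed a group of their own below all others, and the Dicer arrays lay between, with Dicer mutant 1 just inside the control range.

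In Yy1 mutants Igfbp2 fell 2.24-fold, by 1.16 (SE 0.112), from 9.06 ± 0.164 to 7.89 ± 0.147 (SD, n = 4; adjusted p = 3.41e-05, limma), and the call held in all 21 alternatives (adjusted p 1.2e-06 to 0.00107). In Dicer mutants it differed by -0.38 (95% interval -0.62 to -0.14) and narrowly missed the test (adjusted p = 0.0512). It passed in 7 of 21 alternatives, among them without Dicer mutant 1 (0.0194) and without Yy1 mutant 2 (0.0424), an array outside this comparison. The difference between the mutants was itself called, at -0.78 (SE 0.112, adjusted p = 0.000974), and remained so in all 21 alternatives. The epithelial list stood in the same order, lower in Yy1 than in Dicer mutants in 6 of its 12 genes and higher in 1. Its part in the Igfbp2 difference was not tested.

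Igfbp5, a binding protein that also attaches to the extracellular matrix, fell in Dicer mutants and not in Yy1 mutants. Its level was 10.80, 10.75, 10.79 and 10.85 in controls and 11.12, 10.70, 10.77 and 10.81 in Yy1 mutants. In Dicer mutants it was 9.89, 10.39, 10.49 and 10.37, with Dicer mutant 1, the array with the lowest Igf1, again the lowest. The Dicer arrays lay below the other 8, and the Yy1 arrays lay on both sides of the controls.

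The fall in Dicer mutants was 1.43-fold, or 0.51 on the log2 scale (SE 0.122), from 10.80 ± 0.0433 to 10.28 ± 0.271 (SD, n = 4; adjusted p = 0.0178, limma). In Yy1 mutants the difference was 0.05 (95% interval -0.21 to 0.31, adjusted p = 0.883), and -0.04 without Yy1 mutant 1. The mutants differed by 0.57, Yy1 minus Dicer (SE 0.122, adjusted p = 0.0151). Without the 3 Y-positive arrays both calls were lost while the differences were no smaller, at -0.54 for Dicer mutants against controls (adjusted p = 0.0545) and 0.71 between the mutants (0.0619).

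Igfbp3, Igfbp4, Igfbp6 and Igfbp7 were not called in any comparison. Igfbp3, the main Igf carrier of adult blood and a known p53 target, read 7.20, 7.69, 7.40 and 7.22 in controls, 7.70, 7.70, 7.61 and 7.65 in Yy1 mutants, and 7.73, 7.41, 8.10 and 7.52 in Dicer mutants. Control 2 lay within both mutant groups. The differences were 0.29 (95% interval -0.01 to 0.58, adjusted p = 0.275) and 0.31 (0.02 to 0.61, adjusted p = 0.192, limma). Of 9 p53 targets measured, 7 were called higher in Yy1 mutants and 6 in Dicer mutants, with mean levels of 7.21 to 7.30 in controls against 8.01 to 8.15 and 8.04 to 8.17. A link between these targets and the Igfbp3 values was not tested.

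Igfbp4, which restrains Igf signalling until Pappa cuts it, read 9.88, 10.02, 9.75 and 9.74 in controls, 10.12, 10.27, 10.03 and 9.95 in Yy1 mutants, and 10.07, 9.98, 10 and 10 in Dicer mutants. Control 2 was the highest control and overlapped both mutants. The difference was 0.25 in Yy1 mutants (95% interval 0.07 to 0.42, adjusted p = 0.107, limma), which passed in 3 of 21 alternatives, among them without control 2 (adjusted p = 0.047). In Dicer mutants it was 0.16 (-0.01 to 0.34, adjusted p = 0.267).

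Igfbp6, which prefers Igf2, and Igfbp7, a relative of low Igf affinity that is abundant in vessels, read lower in Yy1 than in Dicer mutants on every array. Igfbp6 read 7.02, 6.85, 6.88 and 6.91 in controls, 6.79, 6.89, 6.80 and 6.61 in Yy1 mutants, and 7.0, 6.98, 7.14 and 6.93 in Dicer mutants. Its difference between the mutants was -0.24 (95% interval -0.40 to -0.08, adjusted p = 0.0983, limma), and its differences from control were -0.14 (adjusted p = 0.337) and 0.10 (adjusted p = 0.505). Igfbp7 read 8.61, 9.29, 8.85 and 8.77 in controls, 8.77, 9.10, 8.78 and 8.41 in Yy1 mutants, and 9.18, 9.20, 9.53 and 9.38 in Dicer mutants.

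For Igfbp7 control 2 was again the array that overlapped the Dicer mutants. The difference from control was 0.45 in Dicer mutants (95% interval 0.11 to 0.78, adjusted p = 0.0976, limma, and 0.0229 without control 2) and -0.11 in Yy1 mutants (-0.45 to 0.22, adjusted p = 0.775). Between the mutants it was -0.56 (-0.89 to -0.23, adjusted p = 0.0562), past the test in 8 of 21 alternatives, among them without control 2 (0.0258) and without Yy1 mutant 2 (0.0264). The endothelial list moved alongside, with 6 of 9 genes called lower in Yy1 than in Dicer mutants, and its part in Igfbp7 was not tested. In all, 2 of the 9 genes were called between the mutants, Igfbp2 lower and Igfbp5 higher in Yy1 mutants, where 4.96% of all genes were called, 3.39% lower and 1.57% higher. In 4 of the 9 the mutant arrays did not overlap, against 13.8% of all genes. Against the controls the arrays did not overlap in 2 of 9 for Yy1 mutants and 3 of 9 for Dicer mutants, against 12.6% and 16.0% of all genes.

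The wider Igf and insulin pathway was covered by a list of 57 further genes, of which 50 were measured. In Yy1 mutants 6 of the 50 were called higher and 0 lower, against 2.77% and 3.84% of all genes. In Dicer mutants 5 were higher and 3 lower, against 4.78% and 3.97%. The median difference was 0.01 in Yy1 mutants and 0.02 in Dicer mutants.

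Igf2, the other ligand, did not pass the test. It read 11.33 to 11.49 in controls, 11.33 to 11.42 in Yy1 mutants and 11.22 to 11.28 in Dicer mutants, where the difference of -0.15 gave an adjusted p of 0.136 (limma). Its Dicer arrays lay below all controls, and the difference passed with an intensity trend and robust prior (adjusted p = 0.031). Of 3 receptors besides Igf1r, 1 was called higher in Yy1 mutants and 2 in Dicer mutants. Igf2r, which clears Igf2 from the surface, read 10.58, 10.44, 10.54 and 10.51 in controls and 10.84, 10.93, 10.85 and 10.94 in Dicer mutants, a rise of 0.37 (SE 0.0583, adjusted p = 0.00141). In Yy1 mutants it read 10.60 to 10.68, a difference of 0.13 (adjusted p = 0.247). The mutants differed by -0.24, Yy1 minus Dicer (adjusted p = 0.0305), a call lost without any of the 4 Yy1 mutants or without Dicer mutant 2, 3 or 4 (adjusted p 0.0558 to 0.0992), with the replicate block (0.0608) and without the 3 Y-positive arrays (0.363, where the difference was -0.20). Insr, the insulin receptor, read 7.87, 8.12, 8.0 and 7.88 in controls, 8.43, 8.20, 8.21 and 8.29 in Yy1 mutants, and 8.41, 8.57, 8.39 and 8.38 in Dicer mutants. It rose by 0.47 in Dicer mutants (adjusted p = 0.00209) and by 0.32 in Yy1 mutants (adjusted p = 0.0288). The Yy1 call was lost without control 1, 3 or 4 or Yy1 mutant 1 or 4 (adjusted p 0.0563 to 0.0953), with only the 2 genotypes in the model (0.0609), with the replicate block (0.0518) and without the 3 Y-positive arrays (0.0784, where the difference was 0.39). Igfbp1, the gene beside Igfbp3 in the genome, read 5.25 to 5.63 over all arrays and was not called.

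Of 8 carriers, proteases and their regulators outside the cell, 3 were called higher in Yy1 mutants, Pappa, Pappa2 and Stc1. In Dicer mutants 1 was called higher, Stc1, and 1 lower. The lower one was Htra1, a secreted protease, at -0.42 (adjusted p = 0.0324, limma), a gene named after its values were seen. Pappa, the metalloproteinase that cuts Igfbp4, read 7.92, 7.82, 7.83 and 7.87 in controls, 8.68, 8.34, 8.32 and 8.39 in Yy1 mutants, and 7.78, 8.03, 7.93 and 8.10 in Dicer mutants. It rose 1.49-fold in Yy1 mutants, by 0.57 (SE 0.0898, adjusted p = 0.00152, limma), and differed by 0.10 in Dicer mutants (adjusted p = 0.585). Pappa2, its relative, which cuts Igfbp3 and Igfbp5, read 6.0, 6.0, 6.17 and 6.05 in controls, 6.84, 6.71, 6.58 and 6.96 in Yy1 mutants, and 6.02, 6.41, 6.22 and 6.41 in Dicer mutants. It rose by 0.72 in Yy1 mutants (SE 0.101, adjusted p = 0.000626) and differed by 0.21 in Dicer mutants (adjusted p = 0.241).

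Stc1, stanniocalcin 1, a secreted inhibitor of Pappa, rose in both mutants. Its level was 7.15, 7.19, 6.87 and 6.89 in controls, 8.14, 8.38, 8.17 and 7.93 in Yy1 mutants, and 7.87, 7.52, 7.52 and 7.47 in Dicer mutants, so that the 3 groups did not overlap. The rise was 2.19-fold in Yy1 mutants (1.13, SE 0.116, adjusted p = 5.34e-05, limma) and 1.49-fold in Dicer mutants (0.58, adjusted p = 0.00677). The mutants differed from each other in Pappa by 0.47 (adjusted p = 0.00671), in Pappa2 by 0.51 (adjusted p = 0.00886) and in Stc1 by 0.56 (adjusted p = 0.0119). Without the 3 Y-positive arrays the Stc1 difference was 0.40 (adjusted p = 0.271). Protein cleavage was not measured.

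**Figure D4:**
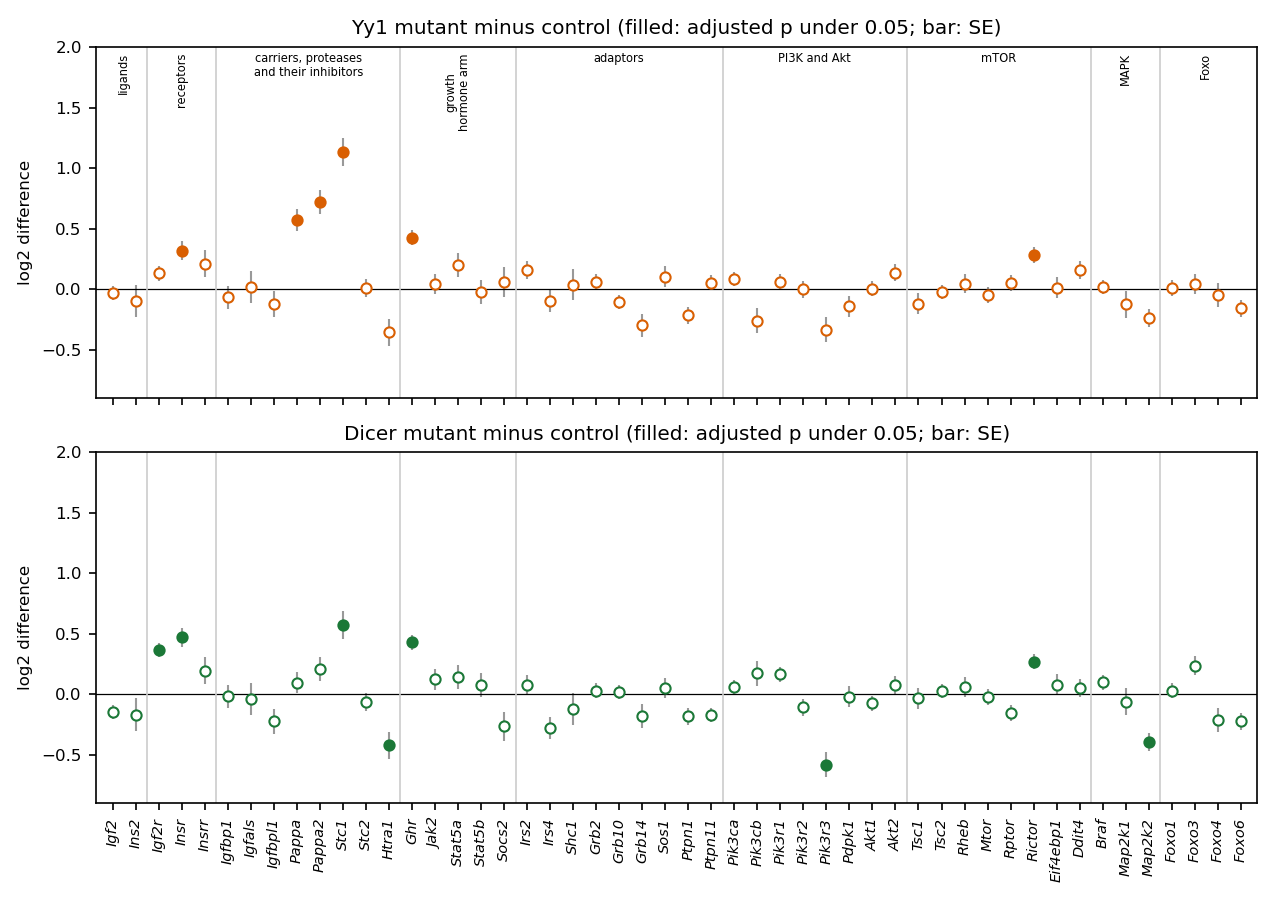
Log2 difference from control (vertical axes) of the 50 measured genes of the wider Igf and insulin pathway, ordered by role, in Yy1 mutants (upper panel) and Dicer mutants (lower panel), with the SE (bar). Filled points passed the test, and most of the high ones are receptors or regulators outside the cell, with Stc1 highest in both panels.

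Ghr, the growth hormone receptor, which drives Igf1 output in the liver, rose to nearly the same level in both mutants. It read 8.11, 8.33, 8.11 and 8.19 in controls, 8.58 to 8.65 in Yy1 mutants and 8.59 to 8.64 in Dicer mutants. The rises were 0.42 (adjusted p = 0.000882, limma) and 0.43 (adjusted p = 0.000757), and the mutants differed by -0.01 (95% interval -0.14 to 0.13). The sign of that last difference changed to 0.02 with quantile normalisation. Of 9 adaptors inside the cell, 0 were called in either mutant, and Irs2, the closest relative of Irs1 in the list, differed by 0.16 (adjusted p = 0.295) and 0.08 (adjusted p = 0.6).

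Of 8 measured genes of the phosphoinositide 3-kinase and Akt step, Pik3r3, a regulatory subunit, was the only one called against control. It read 9.18, 8.93, 8.99 and 8.88 in controls, 8.74, 8.60, 8.88 and 8.41 in Yy1 mutants, and 8.25, 8.40, 8.51 and 8.49 in Dicer mutants. It fell by 0.58 in Dicer mutants (SE 0.103, adjusted p = 0.00309, limma), beside a difference of -0.34 in the Yy1 arrays (adjusted p = 0.0751), which passed in 3 of 21 alternatives (0.0302 to 0.0418), among them without Yy1 mutant 3 (0.0394). Pik3cb, a catalytic subunit, differed only in the direct comparison, by -0.44 in Yy1 against Dicer mutants (adjusted p = 0.0261), a call lost without Yy1 mutant 3 or 4 or Dicer mutant 3 or 4 (0.0562 to 0.085) or without the 3 Y-positive arrays (0.0967, where the difference was -0.53).

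Rictor, a subunit of an mTOR complex that phosphorylates Akt, read 8.61 to 8.72 in controls, 8.84 to 9.02 in Yy1 mutants and 8.87 to 9.02 in Dicer mutants. It rose by 0.28 (adjusted p = 0.0153, limma) and 0.27 (adjusted p = 0.0165). Without control 3 these were 0.05 and 0.0539, without Dicer mutant 3 the second was 0.0582, and without the 3 Y-positive arrays they were 0.0861 and 0.0664, with differences of 0.31 and 0.27. Map2k2, a kinase of the MAP kinase branch, fell by 0.39 in Dicer mutants (adjusted p = 0.0038), beside a difference of -0.24 in the Yy1 arrays (adjusted p = 0.0709), which passed in 3 of 21 alternatives (0.0232 to 0.0485). Of 4 Foxo genes, transcription factors that Akt keeps out of the nucleus, 0 were called in either mutant.

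The genes most like each member over the 12 arrays were found by Pearson correlation among 10619 genes, those with a mean level above the median gene other than the members, gene models named by number only, Riken clones, and genes of the Y chromosome and X inactivation. These correlations follow the genotype differences as well as the variation within genotypes, and are descriptions. The genes were picked for this likeness, so the order of genotypes in their levels is tied to that choice and is no separate result. The same holds for their calls. For Igf1 they were Sox2, the conducting airway transcription factor (r = 0.942), Runx1 (0.938) and Emilin3 (0.931). For deviations from the genotype means these were lower, at 0.6336, 0.7365 and 0.5674. Sox2 read 7.38 to 7.79 in controls, 6.04 to 6.70 in Yy1 mutants and 5.33 to 5.98 in Dicer mutants. For Igfbp2 the closest genes were Etv5, an Ets factor that responds to Fgf (0.984), Akap5 (0.984) and Dtx4 (0.976). Their deviations from the genotype means gave 0.8503, 0.861 and 0.8119. Etv5 read 10.13 to 10.35 in controls, 8.88 to 9.18 in Yy1 mutants and 9.57 to 9.90 in Dicer mutants, and Akap5 9.24 to 9.58, 8.05 to 8.44 and 8.71 to 9.28.

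For Igfbp5 the closest genes were Dnajc10 (0.944), Ift20 (0.935) and Cped1 (0.935), of which Cped1 fell in Dicer mutants by 0.39 (adjusted p = 0.00767, limma). For Irs1 they were Lmo4 (0.945), Psmd3 (0.942) and Elavl1 (0.933), and Lmo4 fell in Dicer mutants by 0.42 (adjusted p = 0.0099, limma). Psmd3 was also called lower there, at -0.225 (adjusted p = 0.038), while Elavl1 was not called, at -0.2166 (0.0505). The other members, whose differences did not pass the test, had Braf, Bcl2l1 and Zim1 closest to Igf1r (0.896 to 0.870), Uhrf2, Pde4b and Rasa1 to Igfbp3 (0.880 to 0.836), Rps6kc1, AU040320 and Rin3 to Igfbp4 (0.968 to 0.927), Garem1, Gnai2 and Tmem88 to Igfbp6 (0.931 to 0.924), and Gdpd5, Mest and Sorbs2 to Igfbp7 (0.950 to 0.944). Among the members themselves, Igf1 and Igfbp5 had the highest correlation (0.795, and 0.817 for deviations from the genotype means), a pair in which Dicer mutant 1 was the lowest array for both.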

How the data were processed

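Total RNA from 12 mouse lungs was hybridised to Affymetrix arrays, per the labels' protocols. The deposited values run from 1.10 to 13.6 with array medians of 5.99 to 6.08, and were taken as log2 expression summarised and normalised by the authors. The base was inferred from the values. Summary method, background correction, normalisation, software and genome build: not given in the sources used here. Of 41345 probe sets, 23521 carried 1 gene symbol in the platform annotation, 1814 carried several and 16010 were not listed, which left 22180 genes. Where a gene had several, its brightest probe set by mean level was used.

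All 12 arrays entered 1 linear model with a mean per genotype and 9 residual degrees of freedom (limma 3.58.1, R 4.3.3, lmFit and eBayes, two-sided, Benjamini-Hochberg over all genes). The smallest correlation between 2 arrays was 0.978, and no pair was identical. The script was tested on simulated data, with known shifts added to the Yy1 mutant arrays of some genes. It called 48 of 67 genes shifted by 0.5, 64 of 67 shifted by 1 and 66 of 66 shifted by 2. There were 9 false calls among the other genes. Shifts of 0.5 were thus missed at times. A total of 21 alternatives was tried: 12 that leave out an array, 2 scalings, a filter on dim genes, the mean of a gene's probe sets, an intensity trend with a robust prior, only the groups compared, array weights, the replicate number as a block, and leaving out the 3 Y-positive arrays. The number of arrays limits the precision.

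The members and lists were chosen with earlier results of these data known. The text names the 9 members, up to 6 called pathway genes with the smallest p in each comparison, Igf2, Igf2r, Insr, Irs2 and Igfbp1 whatever their values, and the 3 genes most correlated with each member. Promoters and neighbouring genes came from RefSeq (GRCm38.p6). Of the 57 pathway genes 7 were not analysed here.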

Additional observations from a re-analysis of the deposited data

Results flagged for a closer look

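In the direct comparison of the mutants, Yy1 minus Dicer, the test of the difference itself passed for 7 of the genes described. These were Igfbp2 (-0.78), Igfbp5 (0.57), Stc1 (0.56), Pappa2 (0.51), Pappa (0.47), Igf2r (-0.24) and Pik3cb (-0.44). In 4 groups of 4 arrays a single array stood far from the other 3. Igf1r was highest in control 4 (9.42), Stc1 in Dicer mutant 1 (7.87), Insr in Dicer mutant 2 (8.57) and Pik3cb in Dicer mutant 3 (7.51). Of 66 groups examined, chance alone marks about 5%.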

How the results depend on the processing

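Leaving out an array gave 1 to 2 members called in Yy1 mutants, 3 to 4 in Dicer mutants and 2 to 3 between the mutants, and 1020 to 1455, 1275 to 1991 and 726 to 1180 of all genes. The lowest counts for Dicer mutants and between the mutants, 1275 and 726, came without Dicer mutant 4. Without the 3 Y-positive arrays the counts of all genes were 606, 976 and 435, and 1 member was called in each comparison. Fewer arrays entered that fit. Array weights gave 5 members in Dicer mutants and 4 between the mutants, where they called 1806 genes in all. Leaving out the dimmest 30% of genes, or a trend with a robust prior, gave 4 between the mutants. The cause was not tested.

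With the replicate number as a block, 1 member, Igfbp2, was called in Yy1 mutants. The block was fitted to all genes, and single calls were compared for the 9 members and 13 named pathway genes. Among these it ended the calls of Igf1 and Insr in Yy1 mutants and of Igf2r between the mutants. It added Map2k2 in Yy1 mutants and Igfbp7 between the mutants (adjusted p = 0.0485 and 0.0484, limma), and changed no other call of these genes. The labels do not say whether same-numbered arrays of different genotypes belong together, and the main model treated them as unpaired. Of 12 such pairs, 3 correlated above 0.1 in their deviations from the genotype means (-0.161 to 0.190). Between controls and Yy1 mutants these correlations ran from 0.0583 to 0.116. They ran from -0.0198 to 0.190 between controls and Dicer mutants, and from -0.161 to -0.0251 between the mutants.

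Signs changed only for differences that had not passed the test. Against control in Yy1 mutants, Igf1r was -0.00365 with equal medians and -0.0212 to 0.0319 without an array, where Igfbp5 ran from -0.0374 to 0.103, Igfbp7 from -0.224 to 0.0235 and Igfbp1 from -0.112 to 0.0127. In Dicer mutants Igfbp1 was 0.0197 with quantile normalisation, 0.0268 without the 3 Y-positive arrays and -0.0867 to 0.0647 without an array. Between the mutants Ghr was 0.0217 with quantile normalisation, 0.0147 without the 3 arrays and -0.0202 to 0.00297 without an array. Rictor was -0.000966 with equal medians, -0.0189 with array weights and -0.0106 to 0.0506 without an array, where Igfbp3 ran from -0.121 to 0.107 and Igfbp1 from -0.0945 to 0.0191.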
